A study of Mus musculus with 20 samples.

Results

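Methionine restriction was compared with control medium at day 5 (D5) in wild-type C2C12 cells, an established mouse myoblast line that can be brought to form muscle cells in culture. Accessible chromatin was measured by ATAC-seq, in which a transposase places sequencing adapters into open DNA. The members were 4 of the 20 libraries of the series, chosen from their titles: 2 libraries labelled WT, D5 and MR (methionine restriction) and 2 labelled WT, D5 and CTL (control). All 4 carried the wild-type genotype, and the labels name no other allele or agent. The labels give neither the methionine content of either medium nor the event from which days were counted. Replicate numbers are the one thing that separates the libraries of a group, so the p-values below measure the spread between these libraries, which may be technical. The libraries used for comparison were WT at D0 (2), WT at D1 in CTL (2) and in MR (2), and, in a few places, lines labelled as knockouts (KO, 10 libraries) of Setd2, the gene of a histone H3 lysine 36 methyltransferase.

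Methionine is the precursor of S-adenosylmethionine, the methyl donor for DNA, histone and RNA methylation, and of the polyamines. Low amino acid supply is known to act through the translation regulator and transcription factor ATF4, which binds amino acid response elements in genes such as Asns. In myoblasts, MyoD (Myod1) and then myogenin (Myog) open and activate muscle genes while dividing cells leave the cell cycle and fuse. Accessible regions at promoters and enhancers shift with that programme.

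The 10 WT lists held 20847 to 69881 peaks. The D5 CTL lists were the shortest of them, with 22465 and 20847 peaks, and the D5 MR lists held 39538 and 39263. The 2 D5 libraries of KO line 1 held 644 and 1881 peaks, so absence from them carries no information. A gene end of Myod1 was called (a peak no more than 1 kb away) in all 10 WT lists, and one of Myog in all 8 WT lists of D1 and D5 and neither D0 list. Markers of other cell types were read from 4 lists of 10 genes each. Adipocyte genes called at an end numbered 2 and 2 in D5 CTL and 3 and 2 in D5 MR, osteoblast and chondrocyte genes 2 and 1 against 2 and 2, blood and endothelial genes 1 and 1 against 1 and 1, and neuron genes 1 and 1 against 2 and 3. Spp1, of the osteoblast list, and Stmn2, of the neuron list, were called in both MR lists and neither CTL list, and both were called in every D0 and D1 WT library. In the rank comparison described further on, a gene end of Pparg (−1.58) and regions nearest to Sp7 (−0.73) and Cdh5 (−1.12) ranked lower in MR, and a region nearest to Sox9 (2.01) ranked higher. The part of such cells in the results was not tested.

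The MR lists at D5 were longer than the CTL lists and their peaks stood higher above background. CTL held 21656 ± 1144 peaks and MR 39400 ± 194 (SD, n = 2 each), a difference of 0.86 on the log2 scale, and the libraries of the media did not overlap. With 2 libraries against 2 the two-sided exact permutation test can give no p under 0.3333, which is the value here. The background pileup, the number of fragments covering a typical position as recovered from each list, was 5.29 and 5.88 in CTL and 5.17 and 5.45 in MR, so the MR libraries were not deeper by this measure. Fold enrichment over background differed: the highest peak reached 15.3 and 14.6 in CTL and 20.97 and 20.01 in MR. In regions called in all 4 lists the median fold was 4.02 and 3.78 in CTL and 5.58 and 5.19 in MR, and the median −log10 q-value was 6.46 and 5.998 in CTL and 14.9 and 13.3 in MR. These are the authors' values per peak. The contrast of peaks over background thus moved with medium, and its part in the calls below was not tested.

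Merging the 4 lists where peaks shared at least 1 bp gave 44884 regions. Of these, 12550 (28.0%) were called in both MR lists and neither CTL list and are termed gained, 229 (0.510%) were called in both CTL lists and neither MR list and are termed lost, and 17306 (38.6%) were called in all 4. The remaining regions were called in an unequal pattern, most often in 1 MR list alone (8189) or in both MR lists and 1 CTL list (4683). Gained and lost regions depended on list length. Where each list was limited to its 20000 highest-ranked peaks, 2254 regions were gained and 1980 were lost. Leaving out CTL replicate 2 gave 846 lost regions, leaving out CTL replicate 1 gave 474, and leaving out MR replicate 1 or 2 gave 383 and 434.

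Gained regions were mostly weak peaks. Their median rank was percentile 33.8 and 31.9 within the MR lists, with a median fold of 3.52 and 3.29. Among regions called in both MR lists, 78.7% of the weakest decile were absent from both CTL lists, against 42.9% of the fifth decile and 0.0869%, 3 of 3454 regions, of the strongest. In the reverse direction 5.48% of the weakest decile of CTL regions were absent from both MR lists and 0.168% of the strongest. Absence from the other medium therefore fell steadily with peak strength in MR, while it was low at every strength in CTL.

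**Figure D1:**
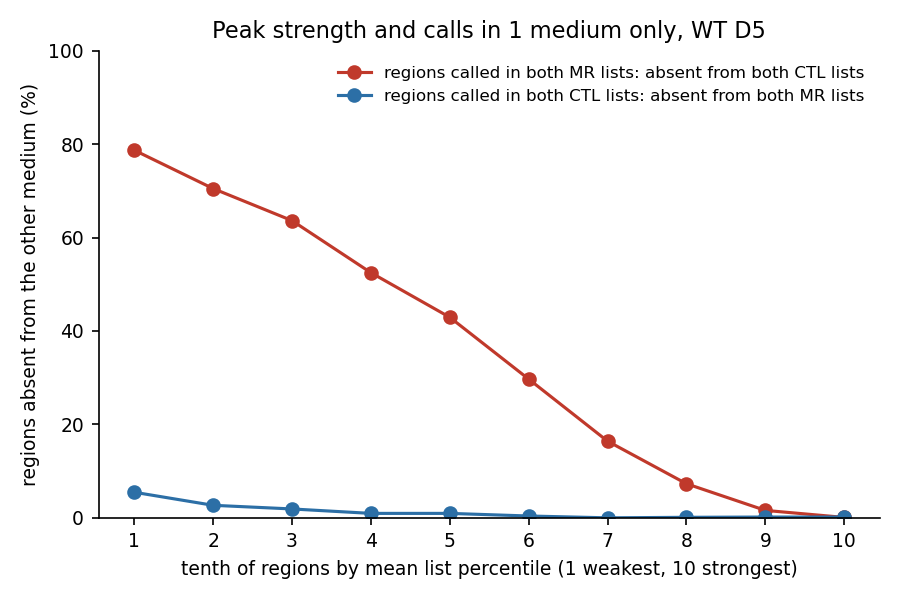
Share of regions (vertical axis, %) called in both libraries of one medium that were absent from both libraries of the other, by decile of peak strength (horizontal axis, mean percentile within the 2 lists). The MR curve falls from 78.7% in the weakest decile to 0.0869% in the strongest, and the CTL curve starts at 5.48%.

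The gene-end share was low in gained regions, and about as low in regions called in a single MR list. Within 1 kb of an end of a protein-coding gene lay 14.2% of gained regions, 13.4% of regions in 1 MR list alone, 24.9% of lost regions, 24.4% of all merged regions and 37.5% of regions called in all 4 lists. Gene bodies held 47.0% of gained, 46.3% of lost and 37.4% of regions in all 4 lists, and intergenic sequence held 38.8%, 28.8% and 25.1%. Over whole lists, the gene-end share of peaks was 34.7% and 35.2% in CTL and 25.2% and 25.9% in MR, a difference of −9.44 percentage points (two-sided exact permutation p = 0.3333, n = 2 each), and −3.83 at equal list length. Median lengths were 148 bp for gained, 102 bp for lost and 282 bp for regions in all 4 lists.

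Most gained regions were already accessible before D5. At least 1 of the 2 WT D0 lists held 9635 of them (76.8%) and both held 62.5%, against 81.3% and 71.0% of all merged regions. Lost regions were in a D0 list in 60.3% of cases and regions called in all 4 lists in 95.9%. The D0 share of gained regions rose with strength, from 66.6% in the weakest decile to 94.5% in the ninth, which held 55 of them. The strongest decile held only 3, with a share of 66.7%. At equal list length in the 4 D5 and 2 D0 lists, the share of gained regions in a D0 list was 56.8%. With D0 peaks held to a −log10 q-value of 5 or more it was 55.2%. Of the 2915 gained regions in neither D0 list, 2240 were called at D1, which left 675 (5.38%) seen at D5 alone among the WT libraries. That share was near the 4.96% of all merged regions, and it was 15.3% for lost regions.

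At D1, gained regions were called in 91.8% and 86.3% of cases in the MR libraries and in 80.6% and 68.8% in the CTL libraries. The media did not overlap, but all merged regions showed 92.2% and 87.7% in MR and 84.8% and 77.0% in CTL, also without overlap. At equal D1 list length the difference between media for gained regions fell from 14.4 to 5.94 percentage points. In the D5 libraries of KO line 2, 44.4% of gained regions were called in CTL and 29.98% in MR, beside 54.5% and 43.4% of all merged regions. Lost regions were called at D1 in 75.5% and 65.5% of cases in CTL and 69.0% and 62.9% in MR.

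**Figure D2:**
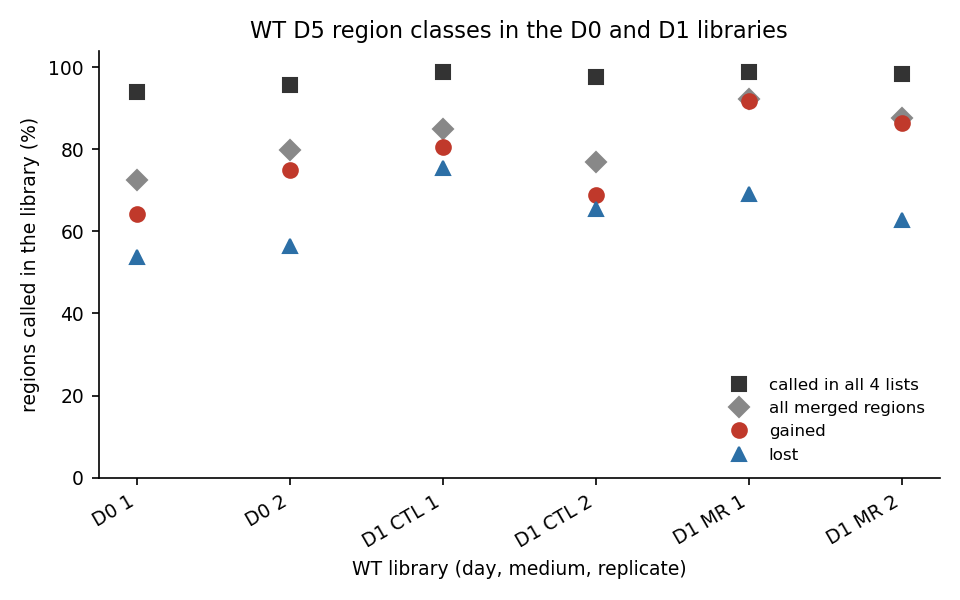
Percent of each class of D5 region (vertical axis) called in each of the 6 WT libraries of D0 and D1 (horizontal axis). Regions called in all 4 D5 lists lie above 93% in every library, gained regions between 64.3% and 91.8%, and lost regions between 53.7% and 75.5%.

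The strongest gained region of those absent from D0 lay in the body of Itga5, the gene of the fibronectin-receptor subunit integrin alpha 5, at chr15:103355532-103355739. It ranked at percentile 92.1 and 93.3 of the MR lists, with a fold of 7.004 and 7.0003, and was called in no other WT library and in no KO library, leaving aside the near-empty lists of KO line 1 at D5. Other strong gained regions absent from D0 lay in Rab22a, in C2cd5, 8817 bp from Bod1l and 28210 bp from Trappc11, and each of these was called in 2 or more D1 libraries. The Rab22a region (chr2:173689854-173690184) ranked at percentile 84.4 and 82.2 in D5 MR, 93.1 and 94.0 in D1 MR and 72.8 and 60.8 in D1 CTL. Rab22a codes for a small GTPase of endosomes.

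Of gained regions present at D0, the 5 strongest were called in each of the 6 WT libraries from the earlier days and lay nearest to Tmem68, Ppp1cb, LOC115489489, Dnajc12 and Cpped1. The region 131990 bp from Tmem68 (chr4:3416769-3417051) ranked at percentile 92.4 and 96.5 in D5 MR. At D1 its percentiles were 96.3 and 97.9 in MR and 24.9 and 29.1 in CTL without overlap of the media. The region 41617 bp from Ppp1cb, the gene of a protein phosphatase catalytic subunit, showed no such difference at D1, with 95.6 and 94.8 in MR and 97.5 and 93.1 in CTL. Dnajc12, a heat shock protein co-chaperone gene, held its gained region at a gene end (chr10:63382722-63382879).

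Strong lost regions were short. The 5 that ranked highest in CTL were 59 to 102 bp long and lay in Tiam2, Mgat4d, Rras2 and Ppfia4 and 28184 bp from Pag1. The Tiam2 region (chr17:3353286-3353344), in the gene of a Rac exchange factor, ranked at percentile 97.5 and 87.1 in D5 CTL, was called in both D1 CTL libraries and in neither D1 MR library. The Pag1 region ranked at 91.1 and 96.1 in D5 CTL and was also called in both D1 MR libraries.

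Gene ends were then scored as called where a peak lay within 1 kb of either end of a gene, since the gene table carries no strand. Of 21631 protein-coding genes, 1280 (5.92%) were called in both MR lists and neither CTL list and 33 (0.153%) in the reverse. Both D0 lists held 999 of the 1280 genes and at least 1 held 1174. Of the 33 lost genes, both D0 lists held 21 and at least 1 held 24. The D0 lists held 45.5% and 48.6% of all 21631 genes, a base that includes genes called in no D5 list. The direction of the gained and lost counts turned at equal list length, where 276 genes were gained and 599 lost. The number lost was 106 without CTL replicate 2, 63 without CTL replicate 1, and 56 and 76 without MR replicate 1 and 2.

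Of 348 genes in 11 lists of pathways, 23 were gained at an end and 1 was lost. Each count below is read against the 5.92% of all genes that were gained, and a share near it is no result about the list. Cell cycle genes numbered 4 of 43 (9.30%): Aurkb (the mitotic kinase Aurora B), Top2a (topoisomerase II alpha), Mcm2 (a subunit of the replicative helicase) and Mki67 (the proliferation marker Ki-67). The peaks at Mki67 ranked at percentile 56.4 and 55.0 of the MR lists, were absent from both CTL lists, and were present in all 6 WT libraries from D0 and D1. Aurkb ranked at 64.9 and 66.4 and Mcm2 at 61.5 and 52.7 in MR, and both genes were also called in every D0 and D1 WT library. At equal list length Aurkb, Mcm2, Mki67, Akt2 and Fgf21 were still gained, and the other 18 were called in neither direction.

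Amino acid response genes numbered 2 of 31 (6.45%), near the share of all genes. Asns, which codes for asparagine synthetase, ranked at percentile 29.6 and 27.0 in D5 MR and was called in every D0 and D1 WT library. Fgf21, the gene of a hormone known to rise under amino acid shortage, ranked at 66.5 and 66.0 in D5 MR, was called in no D0 library, and at D1 ranked at 69.8 and 58.9 in MR and 35.8 and 27.1 in CTL. Fgf21 was thus a call of the later days, and its D1 percentiles did not overlap between media.

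Contractile genes numbered 7 of 54 (12.96%): Casq1, Myh3, Klhl41, Myoz2, Musk, Smyd1 and Myom2. None of the 7 was gained at equal list length. At Myh3, the embryonic myosin heavy chain, a weak peak ranked at percentile 16.6 and 2.07 in the MR lists, with no call in another WT library or in a KO library. Trim63, the muscle ubiquitin ligase MuRF1, had the same pattern of calls, at 17.01 and 8.01. The near-empty lists of KO line 1 at D5 are left aside for both genes. In the rank comparison described further on, regions 18478 bp (−1.59) and 23273 bp (−1.67) from Myh3 ranked lower in MR. Myoz2, a calcineurin-binding protein of the Z-disc, ranked at 53.3 and 31.8 and was otherwise called once, in D1 MR. Musk, the kinase of the neuromuscular junction, was instead called in every earlier WT library, so these 7 genes had no single history.

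Matrix genes numbered 5 of 41 (12.2%), with Col1a1, Col6a2, Thbs2, Tnc and Tgfb1. None of these 5 was gained at equal list length either. Growth factor genes numbered 3 of 34 (8.82%), which were Akt2, Igf1r and Trim63. Fosb (AP-1 list) and Cadm2 (fusion list) were 1 each. The spermine synthase gene Sms, of the methionine cycle list, was the listed gene lost: it ranked at percentile 17.3 and 17.1 in CTL, was in neither MR list, and was called in every earlier WT library. Among the 33 lost genes, and named here after the values were seen, were Tcap and Flnc, which code for the sarcomere proteins telethonin and filamin C, and Krt8, Bnip3 and Prdx2.

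Ranks of the 17306 regions called in all 4 lists compared the media over the same regions in every library. Within each library these regions were ranked by the authors' −log10 p-value and the ranks were turned into normal scores, so that a shift of 1 is 1 standard deviation of the ranking. By limma with Benjamini-Hochberg adjustment, 1840 regions (10.6%) ranked higher in MR and 1718 (9.93%) ranked lower at an adjusted p of 0.05, and 6064 had an unadjusted p under 0.05. The libraries of the media did not overlap in any of these 3558, but the same scores chose the regions. This is therefore no further result about them. Regions that rose had a median shift of 1.17, from percentile 33.0 in CTL to 77.7 in MR, and those that fell a median shift of −1.16, from 77.8 to 35.4. The median shift of all regions was −0.01. Leaving out MR replicate 1 left 366 higher and 559 lower, and leaving out MR replicate 2 left 644 and 872, while leaving out CTL replicate 2 gave 2834 and 2596. Without the trend in the variance prior 906 and 895 passed, on rank percentiles 1076 and 997, and among regions whose −log10 q-value reached 5 in all 4 lists 960 and 927 of 8789.

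Counts by place were unequal. At gene ends 515 regions of 6487 rose and 727 fell, in gene bodies 773 of 6468 rose and 590 fell, and in intergenic sequence 552 of 4351 rose and 401 fell. The median shift was −0.10 at gene ends, 0.05 in gene bodies and 0.06 between genes.

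The region of the largest shift up lay in the body of Tgfbr1, the type I receptor of transforming growth factor beta, at chr4:47407275-47407520. Its percentile was 6.46 and 3.27 in CTL and 94.3 and 91.1 in MR. The shift was 3.14 ± 0.32 (SE, n = 2 each; limma adjusted p = 6.94e-05), and the media stood at opposite ends of the ranking. Next came regions in Bicral (2.85), 32739 bp from Arsb (2.85), at a gene end of Tpx2 (2.84) and in Ranbp10 (2.81). Tpx2, which codes for a spindle assembly factor, held its region at chr2:152847810-152848047 with percentiles of 0.321 and 1.43 in CTL and 75.5 and 53.1 in MR.

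The largest fall was at a gene end of Ankle1, an endonuclease gene, at chr8:71406786-71406911. Percentiles were 90.7 and 85.0 in CTL and 4.42 and 2.18 in MR, a shift of −3.04 ± 0.34 (SE, n = 2 each; limma adjusted p = 8.48e-05). Regions 39265 bp from Pde6h (−2.81), 1259 bp from Abhd6 (−2.77) and in Sox5 (−2.75) followed. In Sox5, a gene of a transcription factor of cartilage and other lineages, the CTL percentiles were 55.7 and 67.3 and the MR percentiles 0.0202 and 8.48. That the media did not overlap in these 9 regions was part of the rule that chose them.

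**Figure D3:**
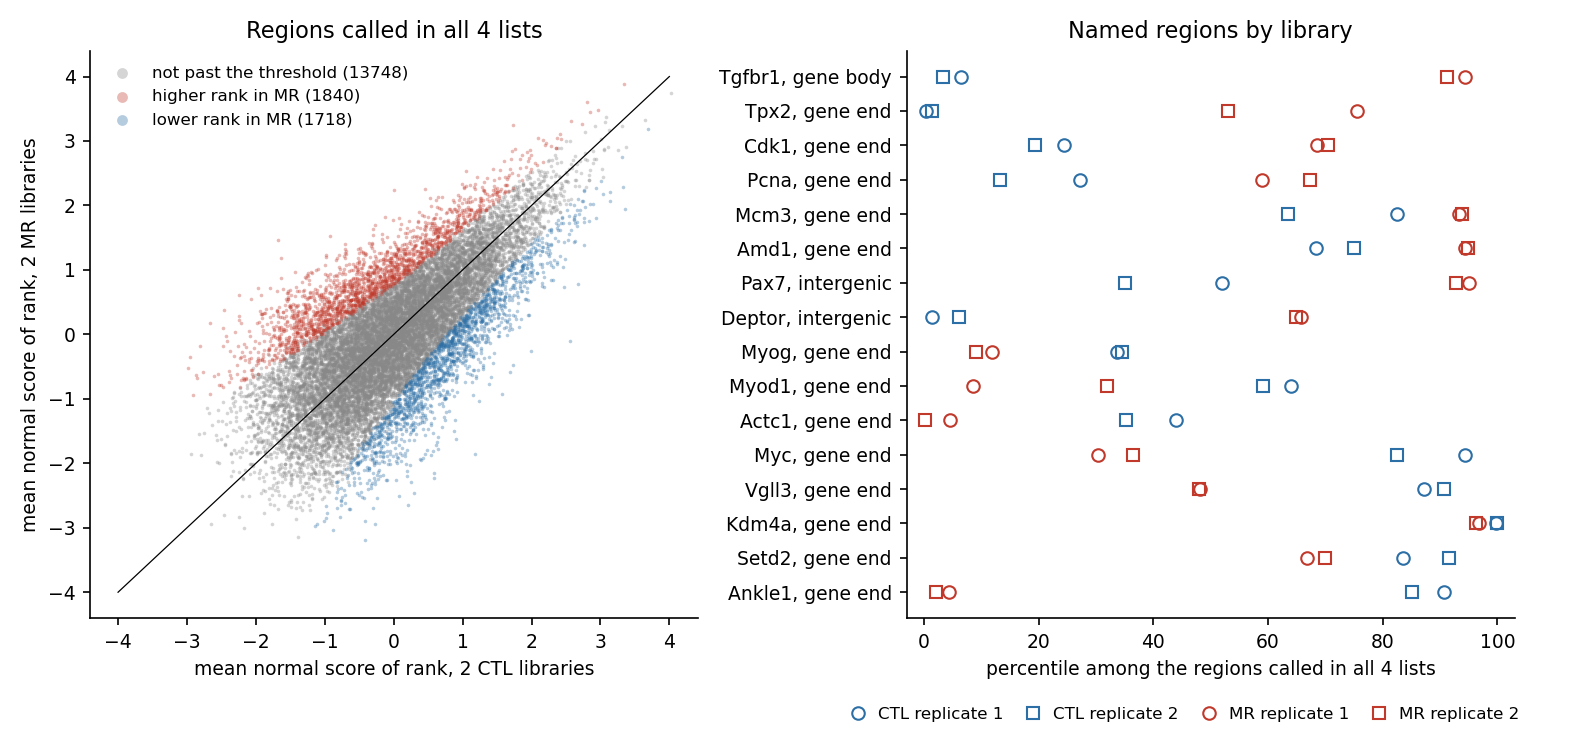
Left, mean normal score of the rank in the 2 MR libraries against the 2 CTL libraries for 17306 regions, with the 1840 higher and 1718 lower in MR coloured and a line of equal score. Right, percentile of 16 named regions (horizontal axis, 0 to 100) in each of the 4 libraries, where Tgfbr1 lies at 3.27 and 6.46 in CTL and at 91.1 and 94.3 in MR.

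The same regions were followed through the other WT libraries, whose ranks took no part in the choice of higher and lower regions. Their calls did: only regions called in all 10 WT lists were kept, 1759 of 1840 higher and 1592 of 1718 lower. Over 16034 regions called in all 10 WT lists, those higher in MR at D5 had median percentiles of 60.4 and 65.5 at D0, 59.4 and 59.5 in D1 CTL, 71.8 and 69.9 in D1 MR, 31.1 and 35.6 in D5 CTL and 78.8 and 76.9 in D5 MR. Those lower in MR had 55.3 and 51.5, 56.7 and 57.5, 43.2 and 46.5, 79.8 and 77.7, and 34.3 and 37.2 in the same order. The D5 values are those that chose the regions, so the distances of D5 CTL and D5 MR from D0 cannot be compared here. As a description over these shared regions, ranks at D5 correlated with D0 at Spearman 0.588 to 0.620 in CTL and 0.622 to 0.730 in MR. D5 MR correlated with D1 MR at 0.747 to 0.792, D5 CTL with D1 CTL at 0.573 to 0.643, and replicates of D5 at 0.823 in CTL and 0.916 in MR. Across media, D5 MR correlated with D1 CTL at 0.594 to 0.702 and D5 CTL with D1 MR at 0.566 to 0.622.

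**Figure D4:**
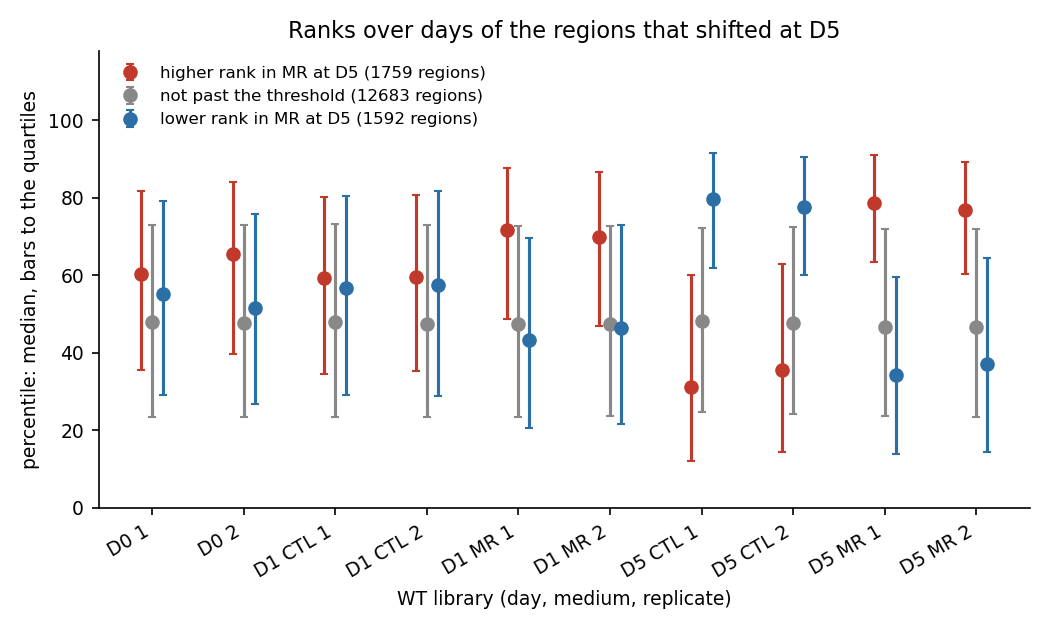
Median percentile (points) with bars to the quartiles in each of the 10 WT libraries (horizontal axis) for regions that ranked higher, lower or without a call in MR at D5. The higher regions lie near 60 to 72 at D0 and D1, at 31.1 and 35.6 in D5 CTL and at 78.8 and 76.9 in D5 MR.

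At D1 the same contrast used 4 other libraries, so its shifts are a separate measurement. Over 16731 regions called in all 8 lists, 1280 (7.65%) ranked higher in D1 MR and 1502 (8.98%) lower. Of the regions higher at D5, 1367 of 1818 (75.2%) had a positive shift at D1, 367 passed the threshold upward and 48 downward. Of the regions lower at D5, 1097 of 1648 (66.6%) had a negative shift at D1, 350 passed downward and 49 upward. Regions without a call at D5 were positive at D1 in 51.7% of cases. The shift itself differed between D5 and D1 in 1328 regions (7.94%), 695 with a more positive value at D5 and 633 with a more negative one (limma interaction, adjusted p of 0.05), and 4394 had an unadjusted p under 0.05. This count fell to 62 without D5 MR replicate 1 and 361 without D5 MR replicate 2, and was 2533 without D5 CTL replicate 2.

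Gene lists were described by the regions whose overlapping or nearest protein-coding gene was listed, beside 10.6% higher and 9.93% lower among all regions. Within each list the 2 regions of largest shift in each direction are named, and some at gene ends besides, a choice made after values were seen. With every library kept, 38 of the 60 regions taken for naming that passed the threshold did so without the variance trend. On rank percentiles 41 did. Of 60 regions past the threshold that were taken for naming, 24 passed without MR replicate 1 and 34 without MR replicate 2, 55 without each of the CTL replicates, and none changed sign.

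**Figure D5:**
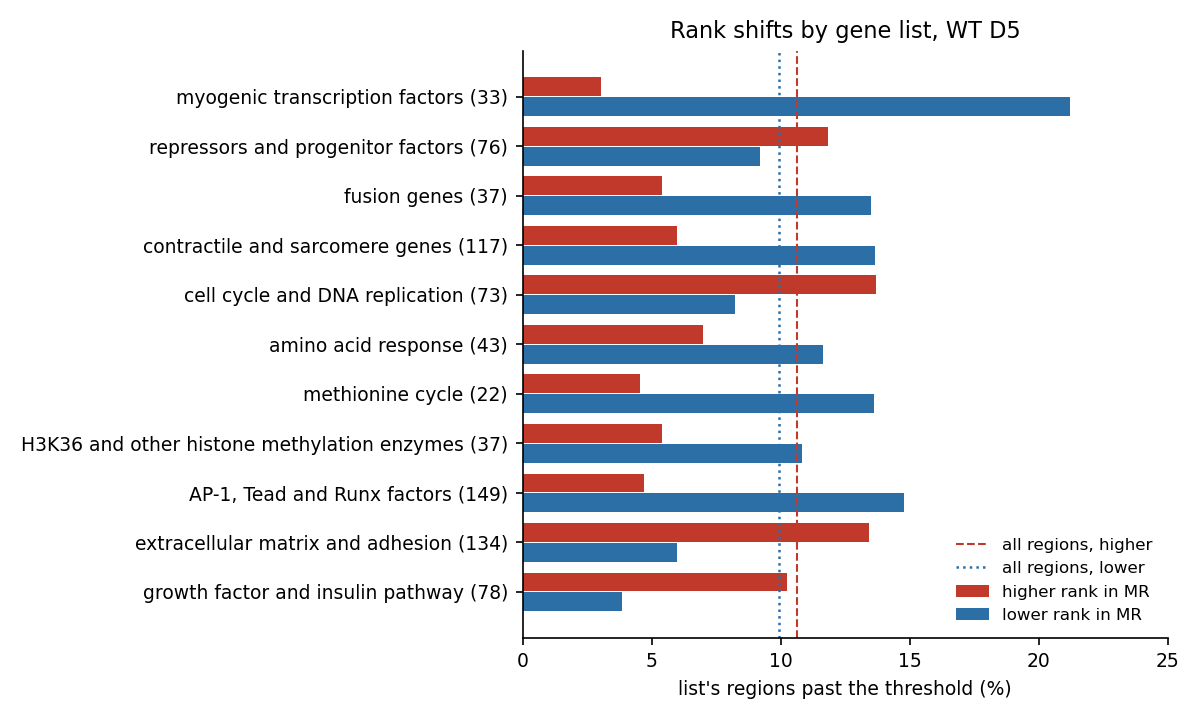
Percent of each list's regions (number in brackets) past the threshold with a higher (red) or lower (blue) rank in MR, and dashed and dotted lines at 10.6% and 9.93% for all 17306 regions. Myogenic transcription factors reach 21.2% lower and 3.03% higher, and extracellular matrix genes 13.4% higher and 5.97% lower.

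Myogenic transcription factor genes fell more often than they rose. Of 33 regions, 7 were lower in MR and 1 was higher, with a median shift of −0.50. At a gene end of Myod1 (chr7:46376165-46376557) percentiles were 64.0 and 59.2 in CTL and 8.65 and 32.0 in MR, a shift of −1.21 ± 0.36 (SE; limma adjusted p = 0.0259). A region 11963 bp from Myod1 stood at 29.6 and 54.4 in CTL and 3.51 and 1.45 in MR, a shift of −1.79 (adjusted p = 0.0103). The other 4 shared Myod1 regions had shifts of −0.49 to −0.83 that did not pass. At a gene end of Myog (chr1:134289624-134290070) percentiles were 33.8 and 34.6 in CTL and 11.8 and 9.17 in MR, and the shift of −0.85 did not pass (adjusted p = 0.134). A gene end of Eya4 (−1.37), a transcriptional coactivator in early muscle, was lower in MR, and so were regions of Six4 and Mef2d. The one higher region lay 14398 bp from Mef2a, at 10.6 and 2.60 in CTL and 44.4 and 36.2 in MR.

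Genes of repressors and progenitor factors moved both ways, with 9 of 76 regions higher, 7 lower and a median of 0.11. Both higher regions of Pax7, the satellite cell factor, were intergenic. That 17813 bp from the gene stood at 52.0 and 35.01 in CTL and 95.0 and 92.8 in MR, a shift of 1.72 ± 0.25 (SE; adjusted p = 0.000619). A region in Hdac4, a class II histone deacetylase gene, rose by 1.59. Id2, whose protein holds back basic helix-loop-helix factors such as MyoD, had a gene-end region at 29.5 and 70.8 in CTL and 90.9 and 88.3 in MR (shift 1.26) and a region 94395 bp away at 95.0 and 87.1 in CTL and 37.4 and 34.6 in MR (shift −1.74). Twist2 likewise had a gene-body region higher and a region 108543 bp away lower in MR.

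Contractile and sarcomere genes had 16 of 117 regions lower and 7 higher, with a median of −0.11. The gene end of Actc1, cardiac alpha actin and an early marker of myotubes, fell from percentile 44.0 and 35.3 in CTL to 4.65 and 0.147 in MR (shift −2.06 ± 0.51, SE; adjusted p = 0.00898). A region 2715 bp from Myh7, the slow myosin heavy chain, stood at 36.5 and 27.3 in CTL and 2.98 and 0.130 in MR (−1.97). Higher in MR were a region in Myl4 (1.57) and a gene end of Xirp1, an actin-binding protein of muscle repair, at 47.9 and 59.9 in CTL and 94.2 and 95.5 in MR (1.53). Fusion genes had 5 of 37 regions lower and 2 higher. In Cdh2, coding for N-cadherin, 2 gene-body regions rose and 1 gene-end region fell, and a region 16966 bp from Stab2, a phosphatidylserine receptor gene, fell by 1.58.

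Cell cycle and replication genes had 10 of 73 regions higher and 6 lower, with a median of 0.08. At a gene end of Cdk1, the mitotic kinase, percentiles were 24.4 and 19.4 in CTL and 68.5 and 70.5 in MR, a shift of 1.29 ± 0.32 (SE; adjusted p = 0.00888). Both gene-end regions of Pcna, the sliding clamp of DNA replication, rose: the weaker stood at 27.3 and 13.3 in CTL and 58.9 and 67.3 in MR and the stronger at 80.0 and 83.3 in CTL and 94.1 and 97.8 in MR. Helicase subunit genes Mcm3 (0.88) and Mcm7 (1.51) rose at gene ends, and a region in Ccnd3, cyclin D3, rose by 1.55. Regions nearest to Rbl2 (1.39), a pocket protein that represses cell cycle genes, and Ccne1 (1.31), cyclin E1, also rose. Cdkn1a, the cell cycle inhibitor p21, had a gene-body region at 86.9 and 76.4 in CTL and 16.4 and 36.1 in MR (−1.59), the inhibitor Cdkn2c fell by 0.93 at a gene end, and a region in the kinase gene Cdk6 fell by 1.15. The gene-end region of Myc was lower in MR (−1.69). Far intergenic regions with Myc as the nearest gene moved both ways. That 232491 bp away was lower (−1.39), and those 271248 bp (0.94) and 337943 bp (0.92) away were higher. Ccna2, cyclin A2, was among the strongest regions in both media at its gene end, with 99.9 and 99.9 in CTL and 97.5 and 99.3 in MR (−0.92).

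Amino acid response genes had 3 of 43 regions higher and 5 lower, with a median of −0.16. Regions of Slc3a2 (1.13), a subunit of an amino acid exchanger, and Sesn2 (0.95), a leucine sensor of the mTORC1 pathway, rose. That of Ddit4 (−1.43), an inhibitor of mTORC1, fell, as did a region 69619 bp from Cebpb (−1.02). Methionine cycle genes had 1 of 22 higher and 3 lower, all at gene ends, where 16 of the 22 regions lay. Of gene-end regions of all genes, 7.94% were higher and 11.2% lower. Amd1, which makes the decarboxylated S-adenosylmethionine used for polyamines, stood at 68.3 and 75.1 in CTL and 94.3 and 94.8 in MR (1.03 ± 0.22, SE; adjusted p = 0.00457). Srm, spermidine synthase, stood at 99.6 and 98.6 in CTL and 95.4 and 96.3 in MR (−0.69), and Cth, cystathionine gamma-lyase, at 96.8 and 96.9 in CTL and 87.2 and 89.4 in MR (−0.67). At a gene end of Mat2a, which makes S-adenosylmethionine, percentiles were 35.5 and 34.2 in CTL and 12.8 and 23.1 in MR, and the shift of −0.55 did not pass (adjusted p = 0.322).

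Histone methylation enzyme genes had 2 of 37 regions higher and 4 lower. Setd2, the gene for which the KO lines are named, stood at 83.6 and 91.6 in CTL and 66.7 and 69.96 in MR at a gene end, a shift of −0.70 ± 0.24 (SE; adjusted p = 0.0487). Kdm4a, a demethylase of histone H3 lysines 9 and 36, stood at 99.8 and 99.9 in CTL and 96.7 and 96.2 in MR (−1.14), and a region in the DNA methyltransferase gene Dnmt3a fell by 1.21. Regions in Setd3 (0.93) and Kdm2a (0.66) rose. AP-1, Tead and Runx factor genes had 22 of 149 regions lower and 7 higher, with a median of −0.13. Of the 22, 6 were nearest to or in Runx1, which also had 1 intergenic region that rose by 1.15. The largest of the Runx1 falls was at chr16:92654546-92654998 from 61.5 and 72.8 in CTL to 6.32 and 1.499 in MR (−2.30 ± 0.40, SE; adjusted p = 0.00126). Vgll3, a Tead cofactor, fell at its gene end from 87.1 and 90.6 to 48.1 and 48.0 (−1.27), and a region in Runx2 rose by 1.31. Cbfb, the gene of the partner subunit of Runx factors, had a gene-body region that rose by 1.92 and a gene-end region that fell by 1.47.

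Extracellular matrix and adhesion genes had 18 of 134 regions higher and 8 lower, with a median of 0.08. Besides Tgfbr1, a region 27431 bp from the collagen gene Col5a1 rose from 22.9 and 37.3 in CTL to 84.3 and 88.6 in MR (1.64). Of the laminin genes, a region 56961 bp from Lama4 (−1.73) and a gene end of Lamc1 (−1.55) fell. Growth factor and insulin pathway genes had 8 of 78 higher and 3 lower. A region 9388 bp from Deptor, an inhibitor of mTOR, stood at 1.49 and 6.20 in CTL and 65.7 and 64.8 in MR (2.25 ± 0.40, SE; adjusted p = 0.00150). A region in Igf2r, the receptor that clears insulin-like growth factor 2, rose by 1.97. Mtor itself rose at a gene end by 0.74, and a region in Akt2 fell by 1.01. Smad3 had a gene-body region lower in MR (−1.11) and another higher (0.64).

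Promoter sequences, taken from RefSeq (GRCm38.p6), were searched for short motifs. Each covers 250 bases before to 50 after a gene's start, and 21012 such promoters of 17244 protein-coding genes were used. The 6 below are shown as examples, chosen with their matches known, read 5′ to 3′ on the gene's strand. Asns was gained and its capitals mark the one match of TGATGNAA, a core of the amino acid response element (chr6:7693160-7693459, minus strand). Mki67 was gained, and Cdk1, Mcm3 and Id2 were higher in MR, and capitals mark the CCAAT box, the site of the factor NF-Y, of which each holds 3 (chr7:135716330-135716629, minus; chr10:69352863-69353162, minus; chr1:20820263-20820562, minus; chr12:25096043-25096342, minus). Setd2 was lower, and capitals mark its GC boxes, GGGCGG, the site of Sp factors (chr9:110532347-110532646, plus). Not every higher promoter held several CCAAT boxes: that of Amd1 held 0 and that of Pcna 1.
Asns: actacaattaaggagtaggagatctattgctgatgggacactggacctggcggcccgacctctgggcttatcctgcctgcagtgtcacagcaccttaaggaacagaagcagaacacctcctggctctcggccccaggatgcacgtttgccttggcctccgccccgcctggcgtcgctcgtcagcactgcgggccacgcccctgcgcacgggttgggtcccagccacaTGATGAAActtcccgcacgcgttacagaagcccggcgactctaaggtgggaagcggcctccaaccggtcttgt
Mki67: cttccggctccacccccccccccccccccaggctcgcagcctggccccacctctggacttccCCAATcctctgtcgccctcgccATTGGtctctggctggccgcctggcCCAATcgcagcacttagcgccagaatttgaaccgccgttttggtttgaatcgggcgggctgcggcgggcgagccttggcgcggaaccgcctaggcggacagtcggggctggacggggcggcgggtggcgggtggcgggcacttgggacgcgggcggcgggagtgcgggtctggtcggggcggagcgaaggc
Cdk1: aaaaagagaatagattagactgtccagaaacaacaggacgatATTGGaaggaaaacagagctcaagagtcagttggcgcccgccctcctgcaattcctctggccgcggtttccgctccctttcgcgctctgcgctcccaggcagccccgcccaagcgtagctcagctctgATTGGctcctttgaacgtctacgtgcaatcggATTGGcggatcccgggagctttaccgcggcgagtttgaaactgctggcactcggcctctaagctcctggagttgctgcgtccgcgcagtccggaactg
Mcm3: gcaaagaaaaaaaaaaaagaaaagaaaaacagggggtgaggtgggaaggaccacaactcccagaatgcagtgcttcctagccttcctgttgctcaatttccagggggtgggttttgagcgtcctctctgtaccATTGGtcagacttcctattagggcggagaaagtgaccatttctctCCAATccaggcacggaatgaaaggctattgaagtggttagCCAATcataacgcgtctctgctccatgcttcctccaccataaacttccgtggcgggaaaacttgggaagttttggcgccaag
Id2: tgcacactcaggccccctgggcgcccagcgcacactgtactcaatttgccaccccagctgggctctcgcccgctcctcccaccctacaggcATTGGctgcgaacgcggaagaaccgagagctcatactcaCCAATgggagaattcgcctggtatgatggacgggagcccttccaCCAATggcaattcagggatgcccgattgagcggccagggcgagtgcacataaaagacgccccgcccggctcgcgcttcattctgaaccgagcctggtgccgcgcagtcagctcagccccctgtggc
Setd2: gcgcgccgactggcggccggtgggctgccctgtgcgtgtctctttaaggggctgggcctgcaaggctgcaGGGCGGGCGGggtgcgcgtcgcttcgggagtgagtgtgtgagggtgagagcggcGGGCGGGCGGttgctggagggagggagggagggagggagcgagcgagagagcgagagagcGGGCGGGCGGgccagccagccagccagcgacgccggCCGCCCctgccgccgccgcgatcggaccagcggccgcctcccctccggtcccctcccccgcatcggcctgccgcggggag

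The CCAAT box was found in a larger share of the promoters whose region ranked higher in MR than of the other classes of promoter. On either strand CCAAT was found in 363 of 523 such promoters (69.4%), against 228 of 642 promoters whose region ranked lower (35.5%), 43.2% of promoters with a shared region and no call, 37.8% of gained promoters and 38.5% of all promoters. At least 2 CCAAT boxes were found in 46.5% of the higher promoters, 12.5% of the lower, 19.3% of those without a call and 12.9% of all. Base composition differed as well, with a median GC content of 58.7% in higher, 66.7% in lower and 63.7% in uncalled promoters. Within the band of 50 to 60% GC the share with CCAAT was 73.9% of 280 higher, 38.1% of 126 lower and 49.2% of 1358 uncalled promoters, and within 60 to 70% it was 66.2% of 198, 37.1% of 264 and 45.3% of 2335. The outer bands held few higher promoters. Under 50% GC the share was 58.6% of 29 higher, 55% of 20 lower and 45.9% of 157 uncalled promoters, close between higher and lower, and at 70% GC or more it was 50% of 16, 30.6% of 232 and 30.1% of 1018. In the separate D1 libraries, promoters that ranked higher in MR held CCAAT in 53.2% of 438 cases and those that ranked lower in 35.5% of 273. The regions of the 2 days overlapped, so these are not separate sets. Of the 1280 regions higher at D1, 367 were also higher at D5, and of the 1502 lower, 350 were also lower. Several promoters can belong to 1 gene, and the CCAAT shares are a description of the sequences.

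Other motifs were counted in the same way. The GC box GGGCGG was found in 65.0% of higher promoters, 77.1% of lower promoters, 74.3% of uncalled promoters and 46.6% of all. The E-box CAGCTG of myogenic factors was found in 12.4% of higher, 14.95% of lower, 15.1% of uncalled and 15.7% of all promoters. TGATGNAA was found in 1.15% of higher, 2.18% of lower, 1.54% of uncalled and 3.45% of all promoters. In the same order, the AP-1 site TGANTCA was found in 3.63%, 2.65%, 4.42% and 7.04%. The Tead site GGAATG was found in 10.9%, 11.1%, 9.98% and 13.5%, again in that order. Matches were counted on both strands and matches of different motifs were allowed to overlap.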

How the data were processed

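Accessible chromatin was measured by ATAC-seq in 20 C2C12 libraries, per the labels' protocols with a commercial tagmentation kit, 10 PCR cycles and paired-end sequencing. The deposited data are 1 broadPeak list per library, on GRCm38 per the submitters' processing notes. The aligner, the peak caller, the treatment of duplicates and the shift of reads for the transposase are not given in the sources used here. Per the values of the deposited lists, each peak has a score (10 times the −log10 q-value without decimals), a fold enrichment ratio, a −log10 p-value and its q-value on the same −log10 scale, all the authors' own. Read totals were not used here. The background pileup was instead solved from the most frequent combination of fold and p-value in each deposited list, assuming a Poisson p-value, and intervals from reads could not be formed.

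The WT D5 lists were merged at 1 bp overlap. A region was called in a library where a peak of it overlapped. Gene ends are within 1 kb of either end of 21631 protein-coding genes of the RefSeq table (GRCm38.p6), and all 348 listed genes matched. Ranks of the −log10 p-value among the regions called in all 4 lists were turned into normal scores and fitted with limma 3.58.1 in R 4.3.3 (moderated test with a variance trend, Benjamini-Hochberg over all regions, threshold 0.05), with an interaction fit for D5 against D1. The interaction fit used all 8 libraries. Single measures were compared with a two-sided exact permutation test. On simulated data for the D5 comparison over 17306 regions the fit called 0 regions without a change, 66 of 200 regions shifted by 1 and 187 of 200 shifted by 2, with 3 and 6 unchanged regions called. The simulated noise was normal, with a spread smoothed over regions of similar mean score. It held no spread particular to a region, so these counts do not give the error rate on the real ranks. Python 3.11.15 with pandas 2.3.3, numpy 2.4.6 and scipy 1.17.1 was used otherwise.

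Named genes were the listed genes gained or lost at an end, the 5 strongest gained regions with and the 5 without a D0 call, the 5 strongest lost regions, the 5 largest rank shifts each way, and Myog, Myod1, Setd2, Mat2a, Asns and Mki67. Some regions that met these rules are not reported here. The members, the gene lists and the motifs were chosen with earlier results of these data known. Alternatives covered overlap, q-value minimum, list length, the window at gene ends, the ranking value, the variance model, the replicate block and each library left out.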

Additional observations from a re-analysis of the deposited data

Results flagged for a closer look

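For 21 of the regions named in the report the rank shift under methionine restriction differed between D5 and D1 by the interaction fit (limma, adjusted p of 0.00547 to 0.0455, n = 2 libraries per group). The difference given is the D5 shift minus the D1 shift over the regions called in all 8 lists, so it departs slightly from the single values beside it. Leaving out a D5 MR library removed most of these calls: 3 of the 21 regions passed without MR replicate 1 and 10 without MR replicate 2, while 17 and 19 passed without CTL replicate 1 and 2, and all kept their sign.

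More negative at D5 were regions of Stab2 (−2.88), Sox5 (−2.64), Eya4 (−2.16), Myh7 (−2.08), Ankle1 (−1.87), Ccna2 (−1.53), Vgll3 (−1.30), Kdm4a (−1.24) and Setd2 (−1.20). The gene end of Ccna2 had a shift of 0.61 at D1 and −0.92 at D5 and that of Setd2 0.49 and −0.70. Ankle1 was lower in MR on both days, by −1.24 at D1 and −3.04 at D5.

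More positive at D5 were regions of Xirp1 (1.02), Setd3 (1.53), Hdac4 (1.87), Cdh2 (1.96 and 2.15), Cbfb (2.03), Tgfbr1 (2.05), Bicral (2.15), Igf2r (2.22), Pax7 (2.26), Tpx2 (2.34) and Ranbp10 (2.46). The Pax7 region had a shift of −0.52 at D1 and 1.72 at D5, and that of Igf2r −0.25 and 1.97. Tgfbr1 was higher in MR on both days, by 1.11 at D1 and 3.14 at D5.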

How the results depend on the processing

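Gained regions outnumbered lost regions under every setting tried, most narrowly at equal list length (2254 against 1980). Gained gene ends outnumbered lost ones except at equal list length, with 276 against 599. Lost regions were 106, and lost gene ends 15, at a −log10 q-value of at least 5. Leaving out each replicate in turn gave 14454 to 17031 gained and 383 to 846 lost regions, 1580 to 1867 gained and 56 to 106 lost gene ends, and 69.8% to 78.9% of gained regions in a D0 list. That share was 62.5% for both D0 lists, 56.8% at equal list length and 55.2% with D0 peaks of a −log10 q-value of at least 5. The D1 difference fell to 5.94 percentage points at equal list length, a setting chosen after seeing the data.

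Rank shifts numbered 1801 without the variance trend, 2073 on rank percentiles, 1887 of 8789 at a −log10 q-value of at least 5 in all 4 lists, and 925 to 5430 with each replicate left out. Of the 925 left without MR replicate 1, 910 were among the 3558. The interaction count was 62 to 2533 with each D5 replicate left out. Replicates with the same number did not deviate together over the regions (r = −0.02). With 2 libraries per group this cannot show whether they were handled together, and the labels do not say. With the replicate block 4054 shifts and 1125 interactions passed. Among named regions, an intergenic Myog region that did not pass ranged from −0.48 to 0.13 with each replicate left out, with a changed sign without CTL replicate 2 and without MR replicate 2 (0.08), and the cause was not tested.

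Groups of 2 libraries limit every comparison, and simulated shifts of 1 were found in 66 of 200 regions, so smaller shifts can be missed. Read depth per region was not used here.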
